A study of Mus musculus with 24 samples.

Results

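Retinoic acid, the vitamin A derivative that patterns much of the embryonic urogenital tract, is made and removed by a small set of enzymes and held in the cytoplasm by binding proteins. The 9 genes described here are Rdh10, Dhrs3, Aldh1a1, Aldh1a2, Aldh1a3, Cyp26a1, Cyp26b1, Crabp1 and Crabp2. They were found as all probes whose gene name in the scanner files is one of these symbols, which gave 12 probes of the 41174 on the array and 9 of the 24717 gene names that passed the filter on dim probes. All 12 probes passed that filter, which left 35477 probes for the tests. Aldh1a3, Rdh10 and Dhrs3 each had a pair of probes, called here the brighter and the dimmer, and the other 6 genes had 1 probe.

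The tissue was the UGS (urogenital sinus), a tube of endoderm and mesenchyme that forms the prostate in males, taken from embryos of the C57BL/6J strain. The study asked which of its genes depend on androgen. Pregnant mice received dihydrotestosterone (DHT), a potent androgen, at 50 mg/kg or vehicle on day 16 post coitum. UGS of their female embryos was collected 6 h later (4 pairs of RNA pools) or 12 h later (3 pairs). A separate set, which the labels place at 48 h, compared untreated male with untreated female littermates on day 17.5 (5 pairs). Accessory ducts had been dissected off, sex was read from the gonads, and each pool held RNA of several embryos. The labels call the pools of a group biological replicates without saying that they came from separate litters. The p-values below therefore measure the spread between these pools. For each probe that spread was taken from all 12 pairs together, so the p-value of a comparison also rests on pairs of the others. Each pair was hybridised on 2 two-colour Agilent arrays with the dyes exchanged, 24 arrays in all. The average of both arrays was taken as 1 replicate. Where a spot carried an outlier flag on 1 array, the other array alone gave the ratio, with no dye balance. Among the probes described here this held for Aldh1a2 in 12 h replicate 3. It also held for the brighter Dhrs3 probe in 12 h replicate 3 and male-female replicate 1.

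In the embryo, Rdh10 oxidises retinol to retinal, and Dhrs3 runs that step backwards. The aldehyde dehydrogenases Aldh1a1, Aldh1a2 and Aldh1a3 then oxidise retinal to retinoic acid, each in its own set of tissues. Cyp26a1 and Cyp26b1 inactivate retinoic acid. Crabp1 and Crabp2 bind it in the cytoplasm, and Crabp2 is known to hand it to the nuclear receptors. Cyp26a1 and Dhrs3 are themselves induced by retinoic acid in many embryonic tissues, which makes them common readouts of its presence.

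Promoter windows of 300 bases (250 before and 50 after the start of the transcript) were given by RefSeq on GRCm38.p6 for 6 of the 9 genes. Aldh1a3, Rdh10 and Crabp2 had none in the table. The 3 stretches below are on the plus strand. Aldh1a1 had 2 windows, and its stretch comes from the one at the outermost start. The other lies downstream, inside the gene, and is not shown. Which of these starts gives the transcript that the probe measures was not tested. Aldh1a1 is shown because of the 9 genes it differed most between the sexes, Crabp1 because it was the only one called lower in males, and Cyp26a1 because its window holds the direct repeat that retinoic acid receptors bind. Capitals mark the repeat in Cyp26a1 and each GGGCGG, the GC box, read on either strand in the other 2.
Cyp26a1, chr19:37697770-37697799: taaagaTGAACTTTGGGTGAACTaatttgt
Aldh1a1, chr19:20492333-20492582: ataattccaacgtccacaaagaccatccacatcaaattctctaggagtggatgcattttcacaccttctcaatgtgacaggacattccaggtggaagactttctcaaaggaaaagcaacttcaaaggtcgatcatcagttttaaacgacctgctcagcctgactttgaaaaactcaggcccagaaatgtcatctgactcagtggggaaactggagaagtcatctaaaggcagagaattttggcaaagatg
Crabp1, chr9:54764498-54764747: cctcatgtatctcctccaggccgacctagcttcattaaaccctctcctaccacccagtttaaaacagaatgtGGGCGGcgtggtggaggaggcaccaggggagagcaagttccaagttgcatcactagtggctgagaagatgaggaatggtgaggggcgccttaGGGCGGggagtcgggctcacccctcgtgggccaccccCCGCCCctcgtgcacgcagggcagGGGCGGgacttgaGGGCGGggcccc

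The repeat searched for was AGGTCA or AGTTCA followed, after any 5 bases, by either of them again. It was found in 13 of 32851 windows (0.0396%). Among the 6 genes with a window it was in that of Cyp26a1 alone, on the minus strand, beginning 32 bases before the start used for that window. The annotated Cyp26a1 gene begins further upstream, at position 37697738, so the repeat lies inside the gene as annotated. A single AGGTCA or AGTTCA occurred in 27.7% of all windows, and among those 6 genes again only within the Cyp26a1 repeat. AGAACA, the short motif of the androgen receptor, occurred in 19.0% of all windows, and once in 1 of the 3 windows of Dhrs3. The GC box occurred in 35.7% of all windows. Crabp1 held 5 of them in the stretch shown, the window of Cyp26b1 held 3 and that of Cyp26a1 held 2. Those of Aldh1a1, Aldh1a2 and Dhrs3 held 0. A match says only that these letters are present.

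Before the results, 3 pools must be singled out. The 6 h vehicle pools are labelled female, yet Eif2s3y, a Y-linked gene, had log2 levels of 6.02, 8.65, 7.64 and 7.80 in replicates 1 to 4. The female pools of day 17.5 lay between 5.99 and 6.37 and the male pools between 8.51 and 9.01. Replicates 2 to 4 were thus above every female pool for Eif2s3y, and replicate 2 lay within its male range. Replicate 2 was also within the male range for Kdm5d (6.64, males 6.45 to 6.79). It was below that range for Ddx3y (7.67, males 8.32 to 8.68) and Uty (6.44, males 6.58 to 6.89). Xist, an X-linked gene read as a further check, was at 10.29 in that pool. Its range was 6.42 to 6.97 in male and 11.96 to 12.60 in female pools. All 4 Y-linked genes measured (Eif2s3y, Ddx3y, Kdm5d and Uty) were past the threshold at 6 h, lower in the DHT pools, and none at 12 h. For members that differed between the sexes, the 6 h value is therefore also given for replicate 1 alone. A fit with that 1 pair takes its spread from the other comparisons and assumes that the pair varies as theirs do, so it is no test of 6 h by itself. Nor was replicate 1 shown to be free of Y-linked RNA. In its vehicle pool Uty (6.20) lay above the female pools of day 17.5 (5.89 to 6.05). Kdm5d (6.23) lay within the female range (6.10 to 6.31), and Ddx3y (5.98) was not above it (6.02 to 6.22).

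The UGS of males and females differed in most of the 9 genes. Of the 12 probes, 8 were higher in males and 1 was lower by limma at an adjusted p under 0.05, where 3.11% of all probes tested were higher and 3.08% lower. The median log2 ratio of male over female was 0.37 over the 12 probes and near 0 (0.0006) over all probes. Taken by the brighter probe of each gene, Aldh1a1, Aldh1a3, Cyp26a1, Dhrs3, Rdh10 and Aldh1a2 were higher, Crabp1 was lower, and Cyp26b1 and Crabp2 did not pass. By contrast, 2 of 12 probes passed at 6 h, both lower in DHT pools (background 1.23% lower), and 0 of 12 at 12 h (background 0.276% in either direction). At 12 h 2 of the 12 probes and 5326 of all probes had an unadjusted p under 0.05.

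**Figure D1:**
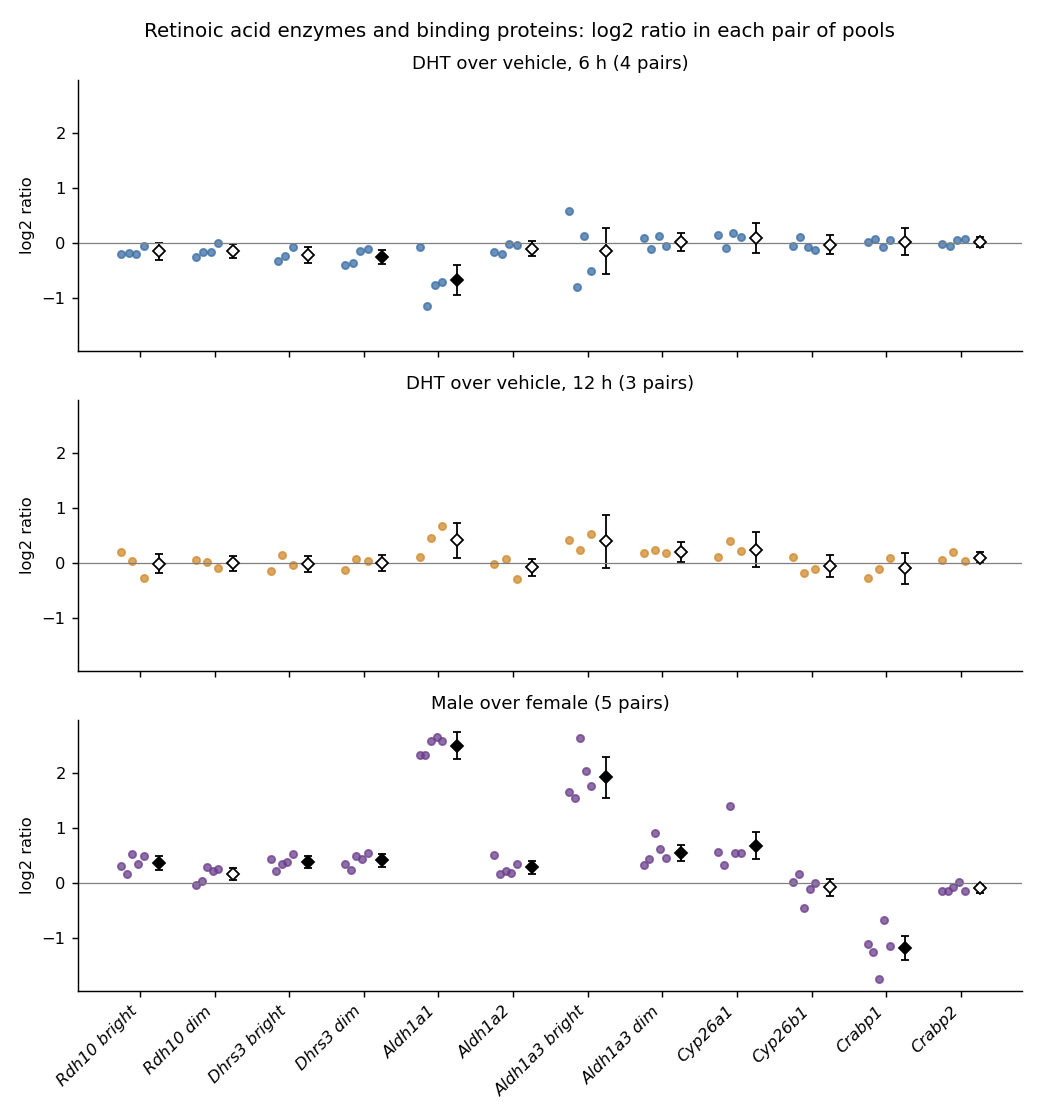
Log2 ratio of each of the 12 probes in every pair of pools (coloured points) with the mean and the 95% confidence interval of the fit (diamonds), for DHT over vehicle at 6 h and 12 h and for male over female. A filled diamond has an adjusted p under 0.05: 2 at 6 h, 0 at 12 h and 9 between the sexes, where Aldh1a1 and both Aldh1a3 probes lie above 0 and Crabp1 below 0 in all 5 pairs.

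Among the retinal dehydrogenases, Aldh1a1 showed the widest difference between the sexes of the 12 probes. Its log2 level was 10.31, 10.25, 10.54, 10.67 and 10.52 in the 5 male pools and 7.98, 7.93, 7.96, 8.02 and 7.94 in their female partners. The groups lay far apart, with the 5 female pools close together. The log2 ratio was 2.49 (SD 0.16, n = 5, adjusted p = 1.18e-07), a 5.64-fold higher signal in males. No other group reached the male level. The 6 h vehicle pools came next, at a mean of 8.63, and the remaining 4 groups had means between 7.63 and 8.04.

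Under DHT, the mean ratio of Aldh1a1 was below 0 at 6 h, where it passed, and above 0 at 12 h, where it did not. At 6 h the log2 ratios were −0.08, −1.14, −0.77 and −0.71 in replicates 1 to 4. The mean was −0.67 (SD 0.44, n = 4, adjusted p = 0.0212). With the 6 h pairs fitted alone in limma, the adjusted p was 0.0901. The low values came from the vehicle side: vehicle pools stood at 8.01, 8.96, 8.74 and 8.81, and DHT pools at 7.93, 7.82, 7.98 and 8.10. The 3 vehicle pools with raised Eif2s3y were the 3 high ones. In replicate 1 alone, whose vehicle pool lay within the female range for Eif2s3y but above it for Uty, the log2 ratio was −0.08. Without replicate 2, 3 or 4 the mean stayed below 0, at −0.52, −0.64 and −0.66, but did not pass with the fewer pairs (adjusted p = 0.141, 0.0784 and 0.0696). Without replicate 1 it was −0.87 (adjusted p = 0.00816).

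At 12 h the Aldh1a1 log2 ratios were 0.10, 0.46 and 0.67, and DHT pools (7.80, 8.03 and 8.28) lay above all 3 vehicle pools (7.70, 7.57 and 7.61). The mean of 0.41 (SD 0.29, n = 3) did not pass after adjustment (adjusted p = 0.204). The male-female ratio exceeded the 12 h ratio by 2.08 (95% interval 1.68 to 2.49, adjusted p = 0.00032). The 12 h ratio exceeded the 6 h ratio by 1.08 (adjusted p = 0.0483), the only one of the 12 probes to pass in that contrast (background 0.259%). With 6 h taken from replicate 1 alone that difference was 0.49. Pools of the 3 comparisons were hybridised on different dates, per the labels, and taken at different ages, so date, age and comparison cannot be told apart in any contrast between them.

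**Figure D2:**
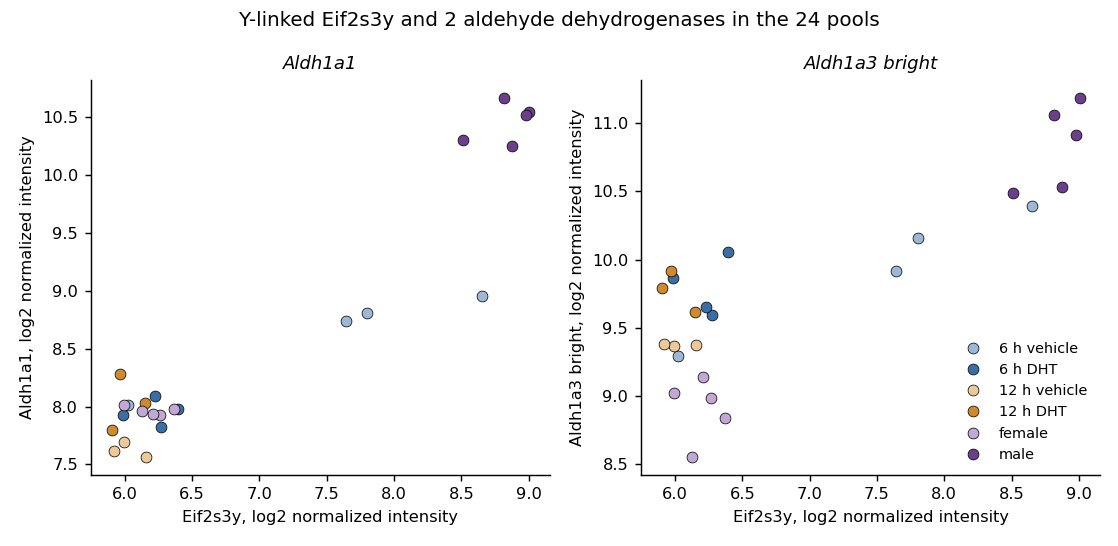
Log2 normalized level of Y-linked Eif2s3y (x axis) against Aldh1a1 (left) and the brighter Aldh1a3 probe (right) in all 24 pools, coloured by group. The 6 h vehicle pools of replicates 2 to 4 lie apart from the other pools labelled female on both axes for Aldh1a1, at Eif2s3y levels of 7.64 to 8.65 and Aldh1a1 levels of 8.74 to 8.96.

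Aldh1a3 was the second retinal dehydrogenase with a wide difference. On the brighter probe the male pools read 10.49, 10.53, 11.19, 11.06 and 10.91 and the female pools 8.84, 8.98, 8.56, 9.02 and 9.14. The groups did not overlap. The log2 ratio was 1.93 (SD 0.43, n = 5, adjusted p = 1.29e-05), or 3.80-fold. The dimmer probe, at log2 levels under 7.5 in every pool, gave ratios of 0.33, 0.44, 0.92, 0.62 and 0.45, a mean of 0.55 (SD 0.23, adjusted p = 0.000141). Both probes were highest in replicate 3. The offset used in the background correction pulls ratios of dim probes towards 0, and with the scanner software's own ratio, which has no such offset, the dimmer probe read 1.06.

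Neither Aldh1a3 probe passed under DHT. At 6 h the brighter probe read 0.57, −0.80, 0.14 and −0.50, so the pairs disagreed in sign, and its mean of −0.15 (SD 0.62) had an adjusted p of 0.88. Its vehicle pools were at 9.29 in replicate 1 and at 10.40, 9.92 and 10.15 in replicates 2 to 4, the 3 with raised Eif2s3y. At 12 h all 3 pairs were above 0 on both probes. The brighter read 0.43, 0.24 and 0.53 (mean 0.40, SD 0.15, adjusted p = 0.439). With the 12 h pairs fitted alone in limma, its adjusted p was 0.225. Its vehicle pools (9.37, 9.37 and 9.38) lay below its DHT pools (9.79, 9.61 and 9.91). The male-female ratio of the brighter probe exceeded the 12 h ratio by 1.53 (adjusted p = 0.0181). Without any 1 of the 12 h pairs that difference was 1.45 to 1.59 and the call was lost (adjusted p = 0.0615 to 0.0876).

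Aldh1a2, the dehydrogenase best known from trunk and limb mesenchyme, differed far less. Its ratios between the sexes were 0.51, 0.17, 0.22, 0.18 and 0.34, all above 0, and male (10.99 to 11.31) and female (10.48 to 11.06) levels overlapped across pools. The mean was 0.28 (SD 0.14, n = 5, adjusted p = 0.00797). The call was lost with median centring in place of loess (0.20, adjusted p = 0.0856), when the male-female pairs were fitted alone (adjusted p = 0.0521), and with only the pairs whose feature extraction fell on 1 day (0.25, adjusted p = 0.0626). Under DHT the ratio was −0.10 (SD 0.10, adjusted p = 0.56) at 6 h, with −0.16 in replicate 1, and −0.08 (SD 0.19, adjusted p = 0.699) at 12 h. The 12 h value of replicate 3, −0.29, came from 1 array, and without that pair the mean was 0.03. The 6 group means of Aldh1a2 spanned 10.87 to 11.21, and each overlapped with its neighbour in rank.

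Rdh10, the enzyme of the first step, was slightly higher in males. The brighter probe read 0.31, 0.16, 0.52, 0.34 and 0.49, a mean of 0.37 (SD 0.15, n = 5, adjusted p = 0.00233). Male pools (7.84 to 8.11) lay above all female pools (7.42 to 7.67). The dimmer probe had the same sign in 4 of 5 pairs, a mean of 0.16 (SD 0.14), and an adjusted p of 0.0919. Under DHT the brighter probe was below 0 in all 4 pairs at 6 h (mean −0.15, SD 0.07, adjusted p = 0.349), with −0.20 in replicate 1, and split at 12 h (0.20, 0.04 and −0.27, adjusted p = 0.973).

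Dhrs3, which turns retinal back to retinol, was higher in males on both probes. The brighter probe read 0.43, 0.22, 0.35, 0.38 and 0.53, a mean of 0.38 (SD 0.11, n = 5, adjusted p = 0.000599). The dimmer probe read 0.34, 0.24, 0.49, 0.44 and 0.54, a mean of 0.41 (SD 0.12, adjusted p = 0.000277). Within 5 pairs every male pool was above its female partner on both, although on the brighter probe the ranges of all males and all females overlapped.

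At 6 h both Dhrs3 probes were below 0 in every pair measured. The dimmer read −0.40, −0.36, −0.15 and −0.11 and passed narrowly, at −0.26 (SD 0.15, n = 4, adjusted p = 0.0486). The vehicle pools (7.44 to 7.71) all lay above the DHT pools (7.31 to 7.36). The brighter probe, missing in replicate 1 because its spot carried an outlier flag on both arrays, read −0.32, −0.24 and −0.07 (mean −0.21, adjusted p = 0.148). That call was lost in 12 of 13 alternatives (adjusted p = 0.0518 to 0.309) and held with the stricter filter (0.0472). The sign was kept in all 13. Replicate 1, whose vehicle pool had Eif2s3y within the female range and Uty above it, had the lowest of the 4 ratios, −0.40. At 12 h the probes read between −0.14 and 0.15, with means of −0.01 and 0.00. The male-female ratio exceeded the 12 h ratio by 0.39 (adjusted p = 0.0451) and 0.41 (adjusted p = 0.0341) on the brighter and dimmer probes. Both calls were lost without 12 h replicate 1 or 3 or male-female replicate 3, 4 or 5, the brighter also without male-female replicate 1 and the dimmer without 12 h replicate 2 (adjusted p = 0.0538 to 0.192).

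The level of Dhrs3 also stepped up from comparison to comparison. On the dimmer probe the group means were 7.33 and 7.59 for DHT and vehicle at 6 h, 8.32 and 8.33 at 12 h, 8.69 in females and 9.10 in males. No pool of the 6 h set reached the lowest pool of the 12 h set on this probe. As these sets differ in hybridisation date as well as age, the step is given as levels only.

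**Figure D3:**
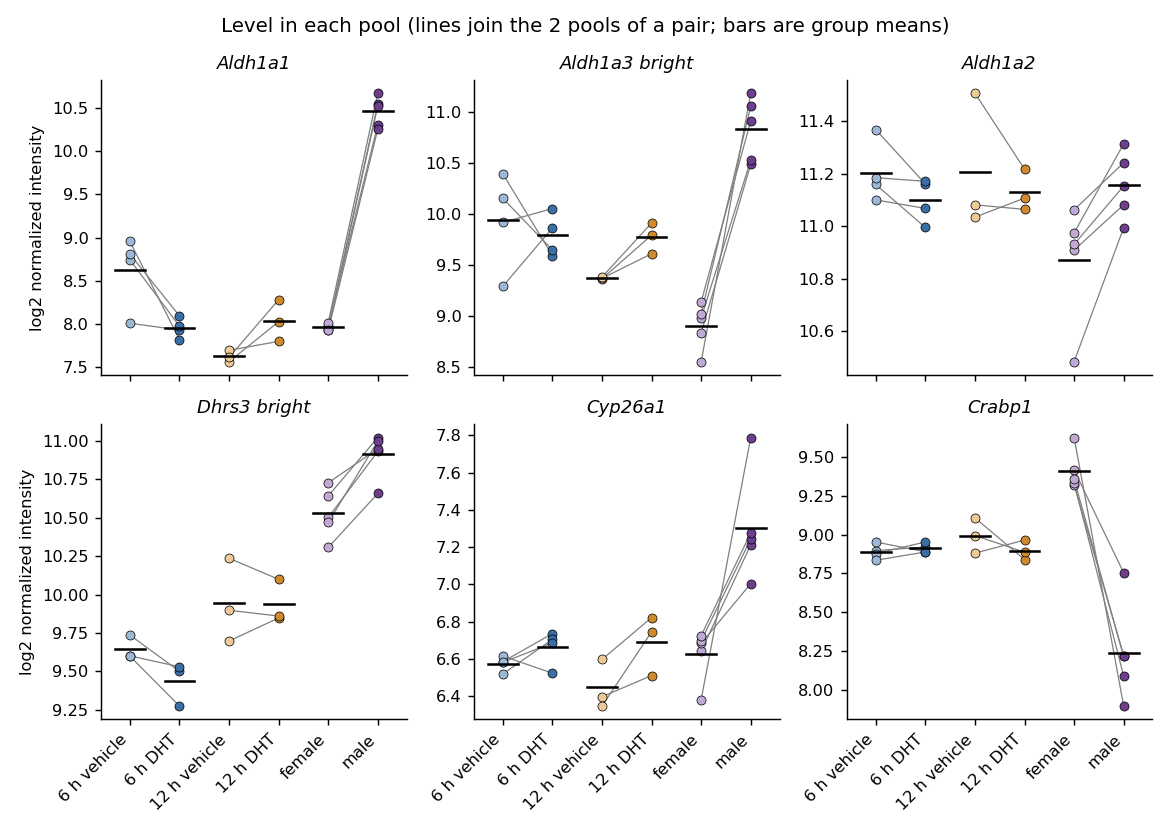
Log2 normalized intensity of 6 probes in each pool, by group, with lines joining the 2 pools of a pair and bars at group means. Male and female pools separate for Aldh1a1 (10.25 to 10.67 against 7.93 to 8.02), Aldh1a3, Cyp26a1 and Crabp1, and overlap for Aldh1a2 and the brighter Dhrs3 probe. Among the 4 vehicle pools at 6 h, replicates 2 to 4 are the high ones for Aldh1a1 and the brighter Aldh1a3 probe.

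Of the enzymes that remove retinoic acid, Cyp26a1 was higher in males. The male pools read 7.21, 7.004, 7.79, 7.24 and 7.28 and the female pools 6.64, 6.68, 6.38, 6.70 and 6.73. The groups did not overlap. The ratios were 0.57, 0.32, 1.41, 0.55 and 0.55, so replicate 3 stood well above the others, with the highest male and the lowest female pool. The mean was 0.68 (SD 0.42, n = 5, adjusted p = 0.00195), a 1.60-fold difference. Without replicate 3 it was 0.50 with a smaller adjusted p (0.000154). The call was lost when the male-female pairs were fitted alone (adjusted p = 0.0753), and the scanner software's ratio gave 1.32.

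Under DHT, Cyp26a1 ratios were 0.15, −0.09, 0.19 and 0.10 at 6 h (mean 0.09, SD 0.12, adjusted p = 0.901). They were 0.11, 0.40 and 0.22 at 12 h (mean 0.25, SD 0.14, adjusted p = 0.467). At 6 h its swapped and unswapped arrays disagreed: before averaging, the unswapped arrays read −0.42 to −0.04 and the swapped ones 0.23 to 0.47. Between the sexes both arrays of each pair had the same sign. The interval of its male-female ratio minus the 12 h ratio was 0.04 to 0.83 (difference 0.43, adjusted p = 0.273), so a difference between these comparisons was not shown for the probe.

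Cyp26b1, the other clearing enzyme, showed no call in any comparison. Its ratios between the sexes were 0.03, 0.16, −0.45, −0.11 and 0.00, split in sign, with a mean of −0.08 (SD 0.23, adjusted p = 0.73). The 95% interval, −0.23 to 0.08, leaves room for a small difference either way. Before averaging, the unswapped arrays read −0.26 to 0.39 between the sexes and the swapped ones −0.65 to −0.07. The unswapped array was the higher in every male-female pair. Replicate 3, the pair with the highest Cyp26a1 ratio, had the lowest Cyp26b1 ratio. Under DHT the means were −0.03 at 6 h and −0.06 at 12 h.

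Of the binding proteins, Crabp1 was the only member called lower in males. The female pools read 9.32, 9.33, 9.63, 9.42 and 9.36 and the male pools 8.22, 8.09, 7.89, 8.75 and 8.21. The groups did not overlap. The ratios were −1.10, −1.25, −1.73, −0.66 and −1.14, a mean of −1.18 (SD 0.38, n = 5, adjusted p = 9.17e-06), and the signal was 2.26-fold lower in males. On levels scaled between arrays, the DHT and vehicle pools of both times lay between 8.84 and 9.11, above every male pool and below every female pool of day 17.5. Crabp1 ratios under DHT were −0.06 to 0.07 at 6 h (mean 0.02, and 0.02 in replicate 1) and −0.27, −0.11 and 0.08 at 12 h (mean −0.10, SD 0.18, adjusted p = 0.81). The male-female ratio was lower than the 12 h ratio by a log2 difference of −1.08 (95% interval −1.44 to −0.72, adjusted p = 0.00709).

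Crabp2 passed in no comparison. It read −0.14, −0.14, −0.07, 0.01 and −0.15 between the sexes (mean −0.10, SD 0.07, adjusted p = 0.163). At 12 h it read 0.05, 0.21 and 0.03 (mean 0.10, adjusted p = 0.358), and at 6 h its mean was 0.01 (adjusted p = 0.964).

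In direct contrasts of the comparisons, 5 of the 12 probes differed between the male-female and the 12 h ratio (background 1.33%): Aldh1a1, the brighter Aldh1a3 probe, both Dhrs3 probes and Crabp1. The 5 fell to 2 without 12 h replicate 1 or 3, and to 3 without 12 h replicate 2 or male-female replicate 3, 4 or 5. For male-female against 6 h, 9 of 12 differed (background 5.67%). With 6 h taken from replicate 1 alone, the difference was 2.57 for Aldh1a1, 1.35 for the brighter Aldh1a3 probe and 0.81 for the dimmer Dhrs3 probe.

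Genes of the same pathway outside the 9 were taken from 4 lists, to be read against the 3.11% of all probes higher and 3.08% lower between the sexes. None of the lists below had a called gene at 6 h or 12 h by its brightest probe. Of 8 measured genes of retinol transport and storage, 0 passed between the sexes by limma, 1 had an unadjusted p under 0.05, and the median was −0.02. Of 13 other retinol and retinal oxidoreductases 2 were higher in males. Adh1, an alcohol dehydrogenase that oxidises retinol, was higher by 0.93 (SD 0.21, adjusted p = 0.000113) and on its second probe by 0.86, while its dimmest probe read 0.08 (adjusted p = 0.376). Dhrs4, a retinal reductase, was higher by 0.27 (adjusted p = 0.00722), while its second probe read −0.02 between the sexes and, at 6 h, passed at 0.21 (adjusted p = 0.0235). The list median was 0.02. Aldh1a7, the mouse gene closest to Aldh1a1 in sequence, was higher in males by 1.49 (SD 0.29, adjusted p = 1.43e-05), and its probe and that of Aldh1a1 may share signal.

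The receptors of retinoic acid themselves passed in none of the 3 comparisons. Rara (0.01, SD 0.05, adjusted p = 0.971), Rarb (−0.18, SD 0.13, adjusted p = 0.0578) and Rarg (−0.04, SD 0.09, adjusted p = 0.729) did not pass between the sexes. In the list of 11 receptors and cofactors 1 gene was higher, the corepressor Nrip1 (0.41, SD 0.16, adjusted p = 0.000465), whose second probe did not pass (0.12, adjusted p = 0.531), and the median was 0.00. Of 14 genes known to respond to retinoic acid, Foxa1 was higher in males (0.50, adjusted p = 0.0119). Meis1 (−0.29, adjusted p = 0.00247) and Meis2 (−0.21, adjusted p = 0.0206), homeobox factors, were lower. Their second probes did not pass (−0.28, adjusted p = 0.0835, and −0.13, adjusted p = 0.3). The remaining 11 did not pass, and the median was 0.01. Foxa1 is also a factor of the UGS epithelium.

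**Figure D4:**
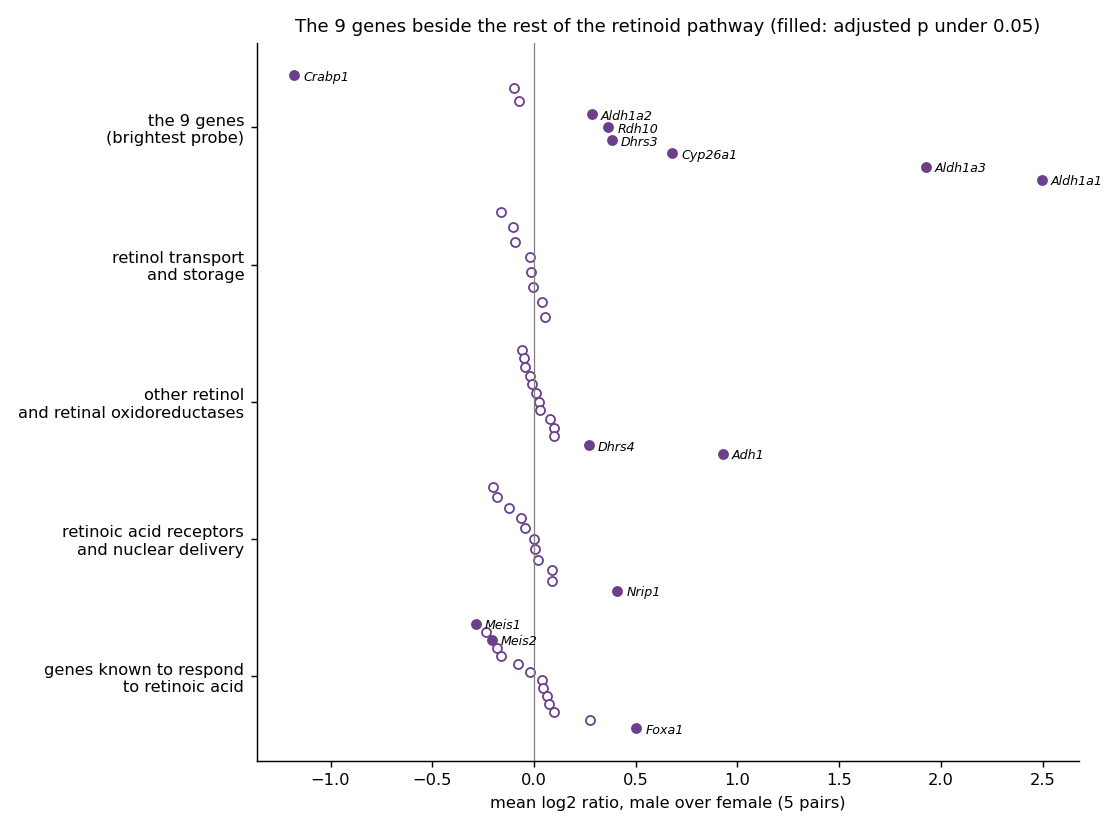
Mean male over female log2 ratio (x axis, 5 pairs) of the 9 genes and of 4 lists of other retinoid genes, each by its brightest probe, ordered within a row; filled points have an adjusted p under 0.05. Aldh1a1 (2.49), Aldh1a3 (1.93) and Crabp1 (−1.18) lie outside the range of all listed genes, whose highest is Adh1 (0.93).

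Markers of other cell types moved in the same pairs. The 15 epithelial markers were above 0 on average in all male-female pairs (mean 0.12 to 0.52) and 8 of 15 passed, among them Cldn4 (0.64), Krt15 (0.55) and Cdh1 (0.54). Of 12 mesenchymal markers 5 were lower, Prrx1 (−0.62) and Col1a1 (−0.67) included, and Tcf21 was higher (0.31). Duct markers moved both ways: Amhr2 (−1.08) and Wnt7a (−0.77), both known from the Mullerian duct, were lower in males, and Gata3 (0.62) was higher. Of 8 markers of gonad, adrenal and mesothelium Msln was higher (1.09, SD 1.04) and Wt1 lower (−0.34, SD 0.27), and the median was 0.06. At 12 h the mean of the epithelial list was 0.00, 0.29 and 0.58 in replicates 1 to 3, the order in which Aldh1a1 ratios ran (0.10, 0.46 and 0.67) but not those of the brighter Aldh1a3 probe. At 6 h it was −0.58, −0.46, −0.10 and 0.00, an order that Dhrs3 followed on its dimmer probe and Aldh1a1 did not. The 6 immune markers were positive in all 4 pairs at 6 h (list mean 0.16 to 0.42), and 2 passed, Adgre1 (0.36) and Ptprc (0.19), where 0.454% of all probes were higher. Between the sexes 1 immune marker was higher and 1 lower, 2 of 7 smooth muscle markers were lower and 1 of 5 urothelial markers was higher. The male-female counts of this paragraph stand beside 3.11% of all probes higher and 3.08% lower. At 6 h 1 of 7 smooth muscle markers and 1 of 9 duct markers were lower, where 1.23% of all probes were. The part of these cell types in the values of the 9 genes was not tested. In pooled tissue, fewer cells of a type and less RNA per cell cannot be told apart.

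The genes whose ratios ran closest to each member over the 12 pairs, of 17965 named genes, were found by Pearson correlation. The pairs fall into 3 comparisons, the male-female pairs far from the rest for several members, so r is a description. For Aldh1a1 they were Pdgfd (0.990), Ddx3y (0.989) and Eif2s3y (0.989), the last 2 Y-linked. For the brighter Aldh1a3 probe they were Eif2s3y (0.971), Mmp7 (0.969) and Coro2a (0.969). Crabp1 ran with Rec8 (0.968), Cntnap4 (0.957) and Tmem213 (0.956), and Cyp26a1 with Gmpr (0.974), Tcap (0.953) and Lsm4 (0.938). Rdh10 ran with Nrip1 (0.921), Aff1 (0.916) and Drap1 (0.913), and Aldh1a2 with Orly (0.931), Endod1 (0.924) and Bcl2 (0.905). Dhrs3 was not compared in this way because its brighter probe lacked 1 pair.

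The 24 arrays had median signals of 98.1 to 151.1 before background correction, which differed by comparison. They were 102.3 to 129.3 on the 6 h arrays, 133.2 to 151.1 on the 12 h arrays and 98.1 to 139.0 on the male-female arrays. All 12 probes were well above background and unsaturated on every array. Over all probes, the ratios of the 2 dye-swapped arrays correlated at 0.351 to 0.741 in the male-female pairs, whereas the 6 h pairs gave −0.512 to −0.078 and the 12 h pairs −0.216 to 0.09. Over all probes, the dye-swapped arrays thus did not agree in the DHT comparisons, where these correlations were negative or near 0.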

How the data were processed

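The deposited scanner files hold spot and background intensities of both dyes and a log10 ratio of Cy5 over Cy3, all made with Agilent Feature Extraction 7.5.1 per the file headers. The authors' deposited series matrix holds log2 ratios whose column medians ran from −0.0112 to 0.0108; its scale and direction (turned on swapped arrays) were read by comparison with the scanner files, and how it was centred is unknown. Mean signals were corrected by normexp (offset 50; limma 3.58.1, R 4.3.3), normalized by loess within arrays, with outlier spots left out. Levels were also scaled between arrays (Aquantile) and averaged over both dyes of a pool. A probe was kept when well above background in a channel on at least 6 of 24 arrays. limma fitted 12 pairs with 1 coefficient per comparison; p-values were two-sided and adjusted (Benjamini-Hochberg) over all 35477 probes, threshold 0.05; SD is over pairs. The fit was tested on simulated data. Probes were named by accession (21445), symbol (5431), synonym (4636) or file name (9662). All probes of the 9 genes are named; list genes are named where called, with Rara, Rarb and Rarg; the 3 most similar genes are given for each member called between the sexes. The genes and lists were chosen with earlier results of these data known. Some genes of the pathway lists are not reported here and were left out of their counts and medians. Alternatives: other background correction, normalization, deposited ratios, filters, fits, and each replicate left out.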

Additional observations from a re-analysis of the deposited data

Results flagged for a closer look

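Several values stood apart from their group by Dixon's test, which flags about 1 group in 20 by chance; 69 groups were examined. Among ratios these were Cyp26a1 in male-female replicate 3 (1.41) and the brighter Rdh10 probe in 6 h replicate 4 (−0.048). Among levels they were Aldh1a2 in the female pool of replicate 1 (10.48), the brighter Rdh10 probe in the female pool of replicate 3 (7.42), the brighter Dhrs3 probe in the male pool of replicate 3 (10.66), Cyp26a1 in the female pool of replicate 3 (6.38) and Crabp2 in the 6 h DHT pool of replicate 3 (6.67). Of these 7 values, 4 belong to male-female replicate 3. That pair also had the highest mean of the 6 skeletal muscle markers, 1.11, against −0.42 to 0.22 in the other male-female pairs. The mean of 4 red blood cell markers was 0.99 there, against −0.49 to 0.25. No marker of these 2 lists passed between the sexes, and their part in the values of replicate 3 was not tested.

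Other values stood out because a contrast of 2 comparisons passed the threshold in limma. Aldh1a1 differed between 12 h and 6 h by 1.08. Between the male-female and the 12 h ratio the differences were 2.08 for Aldh1a1, 1.53 for the brighter Aldh1a3 probe, 0.39 and 0.41 for the brighter and dimmer Dhrs3 probes and −1.08 for Crabp1. Between the male-female and the 6 h ratio they were 3.17 for Aldh1a1, 0.39 for Aldh1a2, 2.07 and 0.53 for the brighter and dimmer Aldh1a3 probes and 0.52 and 0.30 for those of Rdh10. They were 0.59 and 0.67 for those of Dhrs3 and −1.20 for Crabp1. The 6 h contrasts rest on vehicle pools of which 3 had raised Eif2s3y. The part of those pools in these differences was not tested.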

How the results depend on the processing

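Direction was read only for values past the threshold, and none of those turned sign. The 9 calls between the sexes numbered 7 to 10 in every alternative. The 2 calls at 6 h fell to 1 without background correction, with median centring, without a filter and with 1 probe per gene, and to 0 with the scanner ratio, each comparison fitted alone, the replicate block or replicate 1 alone (0 to 1 with a replicate left out). The contrast of 12 h and 6 h lost its 1 call (0) without background correction, with the scanner ratio, the series matrix, 1 probe per gene, the replicate block, replicate 1 alone and most left-out replicates (0 to 1). The male-female and 12 h contrast gave 3 with median centring, the scanner ratio or the replicate block, and 2 to 5 with a replicate left out; the 6 h one gave 2 from replicate 1 alone.

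Over all probes, calls at 6 h (599, 26.9% higher) became 271 (3.32% higher) with median centring, 50 (8.0% higher) with the scanner ratio, 996 with the series matrix, 312 fitted alone, 176 with the replicate block, 2 from replicate 1 alone and 35 to 350 with a replicate left out (35 without replicate 1 and 45 without replicate 2). Calls at 12 h (98, 35.7% higher) became 8 (75% higher) without background correction, 28 (67.9% higher) with median centring, 0 with the series matrix, fitted alone or with any replicate left out, 172 unfiltered, 30 with the stricter filter and 6 with the replicate block. Those between the sexes (2197, 50.3% higher) became 1017 fitted alone, 1326 to 2121 with a replicate left out (lowest without replicate 4), and with median centring 1762 (38.9% higher). Levels depended on the scaling. Without normalization between arrays, 49 group mean levels of the member probes moved by at least the SD of their group and 23 did not. Without background correction 42 moved and 30 did not. Levels of different comparisons are therefore described under the main scaling only. Replicate numbers were not used to pair the samples in the main fit. Same-number correlations were −0.061 to 0.272 (median 0.114) and the others −0.329 to 0.332 (median −0.037). These ranges overlap and cannot decide whether the numbers pair the samples. Using only the male-female pairs whose feature extraction fell on 1 day, an alternative chosen after seeing the data, also gave 9 calls, losing Aldh1a2 and gaining the dimmer Rdh10 probe (0.26, adjusted p = 0.0133); that day as a block was not run, since it split dye-swapped arrays of 1 pair.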
